A study of Mus musculus with 6 samples.

Results

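The genes described here encode heterogeneous nuclear ribonucleoproteins (hnRNPs) and core proteins of the spliceosome. They were taken from a fixed list of 52 symbols, of which 51 were rows of the count table, out of 24982 rows in all. The table spells symbols in capitals (PTBP1, SF3A2, SNRPB, DDX23), and they are given here in the usual mouse form. All 51 passed the filter on low counts, with 11772 genes tested. They comprised 19 hnRNPs, 3 other RNA-binding proteins (Elavl1, Khdrbs1 and Rbm39) and 29 proteins of the snRNPs and the spliceosome. The remaining symbol, HNRPLL, is an older spelling that had no row. Its newer spelling Hnrnpll did have a row, was not counted as a member, and stood at -0.07 (SE 0.26, 95% interval -0.65 to 0.52, adjusted p = 0.942) as a log2 fold change in KO over WT.

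The cells were natural regulatory T (nTreg) cells, which hold back other immune cells, sorted as CD4+CD25+CD127lo from spleens of B6.129 mice 8 to 10 weeks old, and their mRNA was sequenced. The 3 WT libraries carry no allele in the labels. The 3 KO libraries came from Srsf1-flox/flox dLck.Cre mice, in which a Cre recombinase under the distal Lck promoter, active in T cells, deletes the floxed splicing factor gene Srsf1. Before RNA was taken, both groups spent 72 h in culture with anti-CD3, anti-CD28 (2 µg/ml of each antibody) and recombinant interleukin-2 at 10 ng/ml. The design text gives 3 mice per genotype, and pooling of mice is not mentioned. The comparison below sets the mRNAs of the other splicing proteins in KO cells against those in WT cells.

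Introns are removed by the spliceosome, which assembles on each intron from small nuclear ribonucleoproteins (snRNPs). U1 binds the 5′ splice site, U2 the branch site, and the tri-snRNP of U4, U5 and U6 then joins and is rearranged into the active enzyme with the help of the Prp19 complex. A ring of Sm proteins forms the common core of most of these particles. The hnRNPs bind nascent transcripts and often counteract SR proteins such as Srsf1 in the choice of exons. In T cells, hnRNPs are known for controlling variable exons of the phosphatase CD45. Many of these genes also regulate their own mRNA through alternative splicing and decay, which a count per gene does not separate.

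Total gene counts ran from 23263741 to 27562046 in WT and from 10183626 to 20373649 in KO, and the 51 genes had between 352 (Hnrnpa1) and 55308 (Hnrnpu) counts in a library. Srsf1 itself measured 1214, 1230 and 755 CPM (counts relative to library size after scaling by the trimmed mean of M values, TMM) over WT replicates 1, 2 and 3, against 438, 812 and 787 CPM over KO replicates 1, 2 and 3, with a log2 fold change of -0.65 (SE 0.32, 95% interval -1.38 to 0.08, adjusted p = 0.682) in edgeR. The library labelled WT replicate 3 thus lay below KO replicates 2 and 3, and counts over a whole gene include exons outside a deleted part. The KO replicate 1 library, as well as the one labelled WT replicate 3, stood apart from the other 4 in many of the genes below. All 5 Treg markers were detected, with summed levels of 5018 to 8138 CPM in WT and 4623 to 8271 CPM in KO. The 4 T cell markers summed to 846 to 905 CPM in WT and 1164 to 1256 CPM in KO. The summed CD8 genes Cd8a and Cd8b1 lay at 193 to 269 CPM in WT and 38.9 to 60.4 CPM in KO. Their part in the values below was not tested. B cell markers (4 genes) summed to at most 4.75 CPM and macrophage and monocyte markers (4 genes, with Csf1r at 0) to at most 0.501 CPM in any library, while the 3 NK cell markers summed to 35.6 to 90.3 CPM in WT and 42.5 to 81.4 CPM in KO. In bulk RNA, fewer cells of a type and less RNA per cell cannot be told apart.

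No gene of this splicing set was called different between the genotypes. Of the 51 genes, 0 passed an adjusted p of 0.05 in edgeR, where 0.0170% of all genes tested passed, and 0 had an unadjusted p under 0.05, where 7.51% of all genes did. DESeq2 also called 0 of the 51, with 0 at an unadjusted p under 0.05, against 0.977% of all genes called. Adjusted p ran from 0.682 to 0.994. The median log2 fold change was -0.01 over the 19 hnRNPs (9 above 0 and 10 below), +0.09 over the 29 spliceosome proteins (20 above and 9 below) and +0.02 over all genes tested. With upper quartile scaling 12 hnRNPs lay above 0 and 7 below, with a median of +0.04, and 22 spliceosome proteins lay above 0 and 7 below. The hnRNP tally turned on single libraries: 4 lay above 0 and 15 below without the library labelled WT replicate 3 (median -0.11), and 13 above and 6 below without KO replicate 1 (median +0.17). For spliceosome proteins these tallies were 16 and 13 (median +0.02) and 19 and 10 (median +0.05). The median size of the log2 fold change, without its sign, was 0.10 for hnRNPs and 0.16 for spliceosome proteins, against 0.30 over all genes tested. A p that misses the threshold does not show that 2 groups are alike, so the intervals matter. For 40 of the 51 genes the 95% interval of the fold change lay within 2-fold in either direction (78.4%), while it did so for 41.0% of all genes tested. Neither this share nor the median size is matched for expression. All genes tested include ones with counts far below those of the 51, so the gap does not show that these genes were unusually stable. On simulated counts of 11655 genes, 7.14% of the changes that were made 2-fold passed the edgeR threshold, as did 67.7% of those made 4-fold. Most changes of 2-fold were thus not called there with 3 libraries per group. The changed genes were drawn from all genes, and the share for genes with counts like these 51 was not taken.

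**Figure D1:**
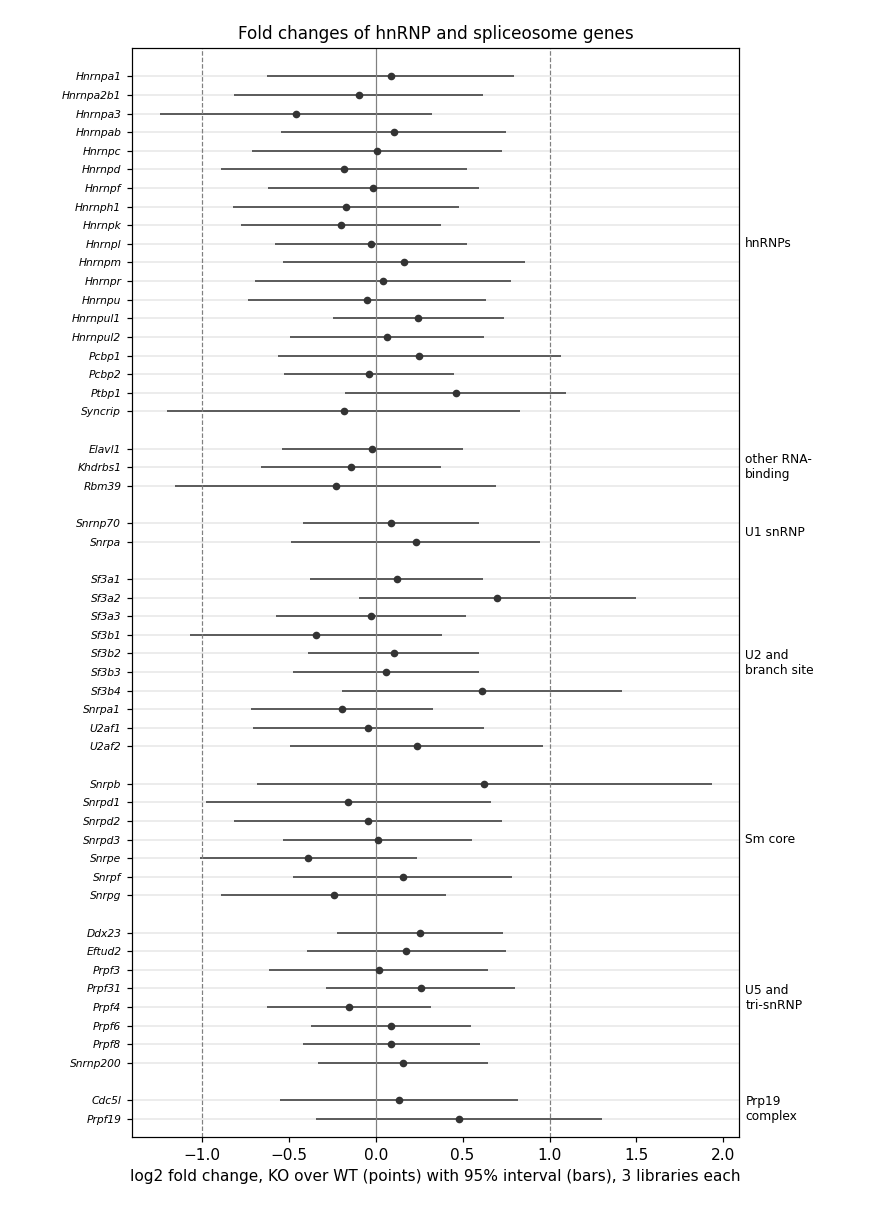
Log2 fold change in KO over WT for each of the 51 genes (points) with its 95% interval (bars) from edgeR, 3 libraries per group, ordered by role; dashed lines mark 2-fold. Every interval spans 0, and Snrpb has the widest, from -0.69 to 1.93.

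As a share of all normalised counts, the 19 hnRNPs took 1.65, 1.46 and 1.17% in WT replicates 1, 2 and 3 and 1.16, 1.53 and 1.60% in KO replicates 1, 2 and 3. The low values were those of the library labelled WT replicate 3 and of KO replicate 1, 1 in each group. The 29 spliceosome proteins took 0.747, 0.737 and 0.617% in WT and 0.750, 0.719 and 0.716% in KO. Here the library labelled WT replicate 3 alone was low, and the groups overlapped in both classes.

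For many of these genes it was a single library, not a group, that stood apart. KO replicate 1 was the highest or the lowest of the 6 libraries for 41 of the 51 genes (80.4%), where it was so for 71.5% of all genes tested. It was lowest for 11 of the 19 hnRNPs and highest for 4. Among the 29 spliceosome proteins it was highest for 15 and lowest for 9. Set against the mean of the other 5 libraries on the log2 scale, KO replicate 1 ran from -1.61 for Syncrip to +1.89 for Snrpb, and 10 of the 51 genes (19.6%) were displaced by more than 2-fold, against 34.4% of all genes tested. The library labelled WT replicate 3 was the lowest of the 6 for 15 of the 29 spliceosome proteins (51.7%) and 3 of the 19 hnRNPs (15.8%), where it was lowest for 16.8% of all genes. It was the highest or the lowest for 35.3% of all genes tested, against 71.5% for KO replicate 1. The median SD of log2 CPM was 0.18 in WT and 0.44 in KO for hnRNPs, and 0.26 in WT and 0.36 in KO for spliceosome proteins. Over all genes tested it was 0.24 in WT and 0.50 in KO, so the wider spread in KO was not particular to these genes.

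**Figure D2:**
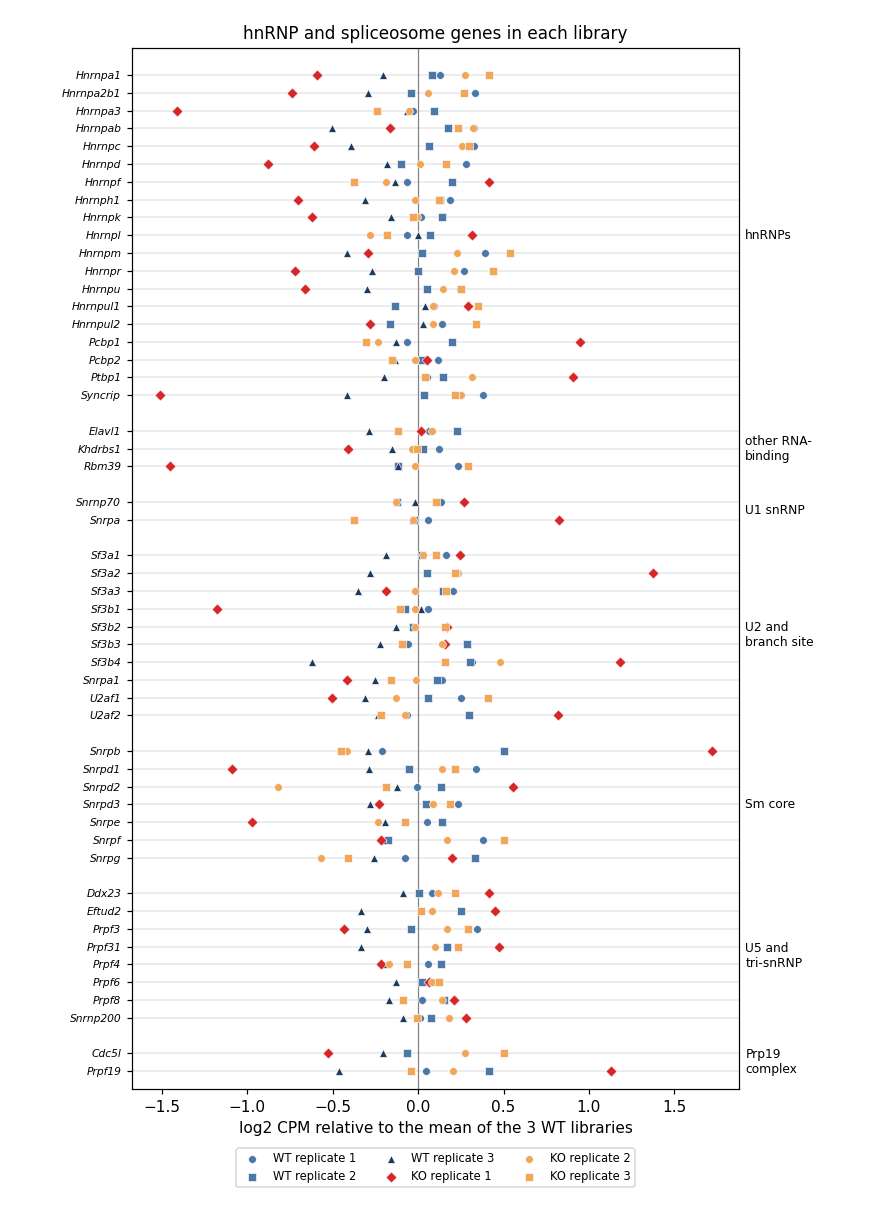
Log2 CPM of each gene in each of the 6 libraries, relative to the mean of the 3 WT libraries, grouped by role; symbols mark libraries. KO replicate 1 (red diamonds) lies far to either side, lowest at Syncrip and highest at Snrpb.

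The position of KO replicate 1 moved with the base composition of the transcripts. Of the 22 members whose transcript was at least 50% G and C, KO replicate 1 lay above the mean of the other 5 libraries for 20. Of the 29 members under 50%, it lay below for 24. Over the 51 genes its displacement correlated with GC content at r = 0.83, and over all genes tested at r = 0.81. These r describe genes of the same library and are not independent points. In the other 5 libraries the same r was below 0. Over the 51 genes it was -0.75, -0.29 and -0.39 in WT and -0.53 and -0.56 in KO replicates 2 and 3, and over all genes -0.48, -0.29 and -0.06 in WT and -0.36 and -0.31 in KO. Since each library is set against a mean that includes KO replicate 1, these r are not independent of its own. The hnRNP transcripts had a median GC content of 45.4% and the spliceosome transcripts 51.0%, against 50.2% for all genes tested. Whether base composition has a part in the differences between genes or groups was not tested beyond a fit that corrects each library for GC content and length. In that fit 0 of the 51 genes passed, against 0.146% of all genes, and the medians were +0.14 for hnRNPs (16 above 0 and 3 below) and +0.03 for spliceosome proteins (18 above and 11 below).

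The 4 members at the ends of this order, chosen after their values were seen, show the contrast in their coding sequence. For each, 90 coding bases are printed from the start of a coding exon, from GENCODE M21 transcripts on GRCm38, with G and C in capitals. The exon was the one whose first 90 coding bases came closest in GC content to the whole coding sequence. The GC content of the printed stretches thus follows from that choice. Syncrip and Rbm39 were far below the other libraries in KO replicate 1 (-1.61 and -1.51 on the log2 scale), while Sf3a2 and Snrpb were far above (+1.28 and +1.89). The stretch of Syncrip lies at chr9:88479823-88479912, minus strand, exon 3, and that of Rbm39 at chr2:156161876-156161965, minus strand, exon 9. The stretch of Sf3a2 lies at chr10:80802792-80802881, plus strand, exon 5, and that of Snrpb at chr2:130173085-130173174, minus strand, exon 5. G and C make up 38 of the 90 bases for Syncrip and 38 for Rbm39, against 56 for Sf3a2 and 54 for Snrpb, and 43.5%, 42.8%, 62.6% and 60.2% of their whole coding sequences.
Syncrip: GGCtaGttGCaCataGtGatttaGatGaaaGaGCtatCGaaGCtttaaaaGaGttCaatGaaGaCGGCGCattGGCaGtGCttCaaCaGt
Rbm39: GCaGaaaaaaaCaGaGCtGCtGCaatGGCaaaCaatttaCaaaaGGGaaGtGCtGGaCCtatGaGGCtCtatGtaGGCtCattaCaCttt
Sf3a2: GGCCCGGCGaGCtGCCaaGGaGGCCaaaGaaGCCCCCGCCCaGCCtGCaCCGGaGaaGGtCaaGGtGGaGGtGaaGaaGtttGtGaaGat
Snrpb: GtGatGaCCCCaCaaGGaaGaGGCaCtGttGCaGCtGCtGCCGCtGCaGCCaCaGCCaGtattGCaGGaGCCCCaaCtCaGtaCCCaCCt

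**Figure D3:**
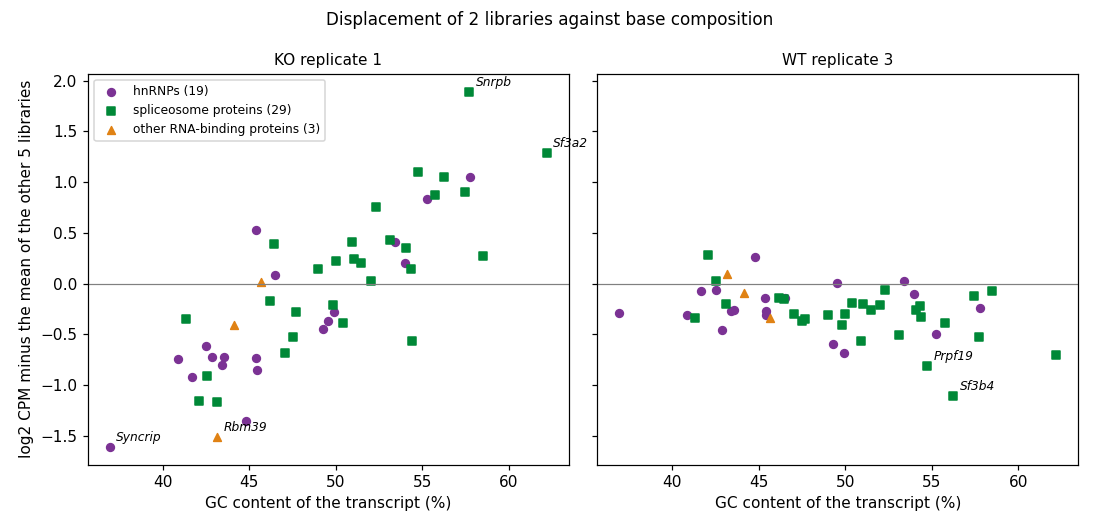
Log2 CPM in KO replicate 1 (left) and the library labelled WT replicate 3 (right) minus the mean of the other 5 libraries, against the GC content of the transcript in percent, for the 51 genes by class. In KO replicate 1 the points climb from Syncrip at -1.61 to Snrpb at +1.89, while in the library labelled WT replicate 3 most points lie below 0, with Sf3b4 lowest.

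Among the hnRNPs, the A/B type proteins package pre-mRNA and often favour skipping of exons. Hnrnpa2b1, which also sorts RNAs for transport, measured 2370, 1831 and 1536 CPM across WT, against 1130, 1958 and 2267 CPM across KO, in replicate order as throughout. Only KO replicate 1 was below all WT libraries, and the log2 fold change was -0.10 (SE 0.31, 95% interval -0.82 to 0.62, adjusted p = 0.924). Hnrnpa3, a close relative, measured 48.4, 52.7 and 47.2 CPM across WT, against 18.6, 47.7 and 41.8 CPM across KO. KO replicates 1 and 3 lay below all WT libraries and KO replicate 2 among them. Its log2 fold change was -0.46 (SE 0.34, 95% interval -1.24 to 0.33, adjusted p = 0.754), the lowest of the 51 genes, and -0.14 without KO replicate 1. Hnrnpa1, a well known antagonist of Srsf1, had only 28.9, 28.05 and 22.96 CPM across WT, against 17.6, 32.1 and 35.3 CPM across KO. The authors' FPKM values, which divide by kilobases of transcript, put it at 134, 145 and 112 in WT and 85.9, 143 and 174 in KO. For a transcript of 1918 bases that division lowers a value, so the 2 measures disagree on this gene beyond length. Hnrnpf, of 2147 bases, also had a higher value in FPKM, at 375 ± 45.8 FPKM and 161 ± 20.3 CPM in WT (mean ± SD, n = 3). Hnrnpd, by comparison, had 603 ± 108 CPM in WT (mean ± SD, n = 3) but 64.6 ± 8.75 FPKM. Near-identical processed copies of Hnrnpa1 exist in the genome. Whether they affect its values was not tested, so its counts are uncertain. The fold change of Hnrnpa1 was +0.09 with KO replicate 1 and +0.34 without that library.

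In FPKM, the most abundant hnRNP was Hnrnpab, a relative of the A/B proteins, at 619.9 ± 154 FPKM in WT and 689 ± 66.2 FPKM in KO (mean ± SD, n = 3 each). Hnrnpa2b1 followed at 592 ± 107 and 574 ± 146 FPKM, a difference from Hnrnpab that is within the spread of the libraries. The least abundant in FPKM was Hnrnpr, a relative of Syncrip, at 22.9 ± 3.03 and 24.00 ± 5.93 FPKM. In CPM it was not the lowest, with 209 ± 38.6 CPM in WT against 26.6 ± 3.22 CPM for Hnrnpa1. The 6 values of Hnrnpr, 25.5, 23.6 and 19.5 FPKM in WT and 17.3, 25.97 and 28.7 FPKM in KO, overlapped between the groups.

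Hnrnpk, a protein with KH domains that binds C-rich RNA and DNA, measured 1128, 1229 and 998 CPM across WT, against 723, 1109 and 1091 CPM across KO. KO replicates 2 and 3 lay between the WT libraries, and the log2 fold change was -0.20 (SE 0.25, 95% interval -0.77 to 0.38, adjusted p = 0.831). Its relative Pcbp1 measured 397, 477 and 379 CPM across WT, against 799.9, 354 and 336 CPM across KO. KO replicate 1 was the highest library and KO replicates 2 and 3 the lowest, so that the fold change went from +0.25 to -0.28 without KO replicate 1. Pcbp2, in contrast, measured 831, 779 and 698 CPM across WT, against 797, 759 and 691 CPM across KO, with a log2 fold change of -0.04 (SE 0.21, 95% interval -0.53 to 0.45, adjusted p = 0.958). Hnrnpc, which binds uridine tracts and keeps U2AF off cryptic exons, had a fold change of +0.01 (SE 0.31, 95% interval -0.71 to 0.72, adjusted p = 0.994).

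Ptbp1, which binds pyrimidine tracts, represses exons and is known in activated T cells for effects on mRNA stability, had the smallest unadjusted p of the hnRNPs. It measured 568, 605 and 476 CPM across WT, against 1026, 679.8 and 562 CPM across KO, with KO replicate 1 the highest and KO replicate 3 within the WT range. The log2 fold change was +0.46 (SE 0.28, 95% interval -0.18 to 1.10, adjusted p = 0.724), and +0.17 without KO replicate 1. Hnrnpul1, a relative of the scaffold protein Hnrnpu, measured 526, 450.4 and 508 CPM across WT, against 605, 525 and 630.0 CPM across KO. KO replicate 2 lay just under WT replicate 1, and the fold change was +0.25 (SE 0.22, 95% interval -0.25 to 0.74, adjusted p = 0.773). Hnrnpl, which represses the variable exons of CD45, measured 538, 591 and 563 CPM across WT, against 702, 463 and 497 CPM across KO, and its fold change was -0.03 (SE 0.24, 95% interval -0.58 to 0.53, adjusted p = 0.975). KO replicates 2 and 3 were the 2 lowest libraries and KO replicate 1 the highest. Hnrnpf and Hnrnph1 bind runs of G, and Hnrnpd also takes part in mRNA decay. The remaining hnRNPs, these 3 among them, were Hnrnpd, Hnrnpf, Hnrnph1, Hnrnpm, Hnrnpu, Hnrnpul2 and Syncrip, and their log2 fold changes ran from -0.19 for Syncrip to +0.16 for Hnrnpm.

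Of the other RNA-binding proteins, Khdrbs1 encodes Sam68, which links signalling to splicing. It measured 426, 399 and 353 CPM across WT, against 295, 382 and 390.2 CPM across KO, with KO replicates 2 and 3 inside the WT range, and its fold change was -0.14 (SE 0.23, 95% interval -0.66 to 0.38, adjusted p = 0.861). Rbm39, an SR-like protein that works with U2AF, measured 519, 406 and 406 CPM across WT, against 161, 435 and 539.6 CPM across KO. The low value is KO replicate 1 alone, and without that library the fold change of -0.23 became +0.13. Elavl1, which encodes the mRNA-stabilising protein HuR, stood at -0.02 (SE 0.23, 95% interval -0.54 to 0.50, adjusted p = 0.981).

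Of the proteins specific to the U1 snRNP, which defines the 5′ splice site, Snrpa and Snrnp70 belong to the set. Snrpa, the A protein of U1, measured 88.3, 83.5 and 83.2 CPM across WT, against 150.3, 83.2 and 65.5 CPM across KO. The WT libraries were close together, KO replicate 1 was the highest of all and KO replicate 3 the lowest, and the fold change was +0.23 (SE 0.31, 95% interval -0.49 to 0.95, adjusted p = 0.843). Snrnp70, the U1-70K protein that SR proteins contact, stood at +0.09 (SE 0.22, 95% interval -0.42 to 0.59, adjusted p = 0.908).

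Among the 10 genes of the U2 snRNP and branch site recognition, 6 had a fold change above 0 and 4 below, with 0 passing the test. Sf3a2, a subunit that joins U2 to the pre-mRNA, had the smallest unadjusted p of all 51 genes. It measured 86.3, 76.1 and 60.4 CPM across WT, against 190.2, 86.03 and 85.4 CPM across KO, and the log2 fold change was +0.70 (SE 0.35, 95% interval -0.09 to 1.496, adjusted p = 0.682). KO replicates 2 and 3 were level with WT replicate 1, and the fold change was +0.21 without KO replicate 1 and +0.10 when the library labelled WT replicate 3 was left out as well. Sf3b4, which contacts the pre-mRNA near the branch site, measured 51.9, 51.5 and 27.1 CPM across WT, against 94.4, 58.03 and 46.4 CPM across KO. The library labelled WT replicate 3 was the lowest and KO replicate 1 the highest, and the fold change was +0.61 (SE 0.35, 95% interval -0.20 to 1.42, adjusted p = 0.716), or +0.04 without both libraries. For Sf3a2 as for Sf3b4, the libraries left out were the highest KO and the lowest WT library. Leaving them out therefore lowers the fold change by construction.

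Sf3b1, the large subunit that clasps the branch site, measured 970.1, 885 and 946 CPM across WT, against 413, 922 and 868 CPM across KO. The other 5 libraries lay close together and KO replicate 1 was low. The fold change of -0.35 (SE 0.32, 95% interval -1.07 to 0.38, adjusted p = 0.778) was -0.06 without it. Snrpa1, the A′ protein of U2, measured 196, 192 and 149 CPM across WT, against 133, 176 and 159 CPM across KO, with a log2 fold change of -0.20 (SE 0.23, 95% interval -0.72 to 0.33, adjusted p = 0.818). U2af1 and U2af2 encode the small and large subunits of the factor that recognises the 3′ splice site. U2af1 stood at -0.04 (SE 0.29, 95% interval -0.71 to 0.62, adjusted p = 0.966) and U2af2 at +0.24 (SE 0.32, 95% interval -0.49 to 0.96, adjusted p = 0.842). The other 4 members, the SF3A and SF3B subunits Sf3a1, Sf3a3, Sf3b2 and Sf3b3, ran from -0.03 for Sf3a3 to +0.12 for Sf3a1.

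The 7 Sm proteins form 1 ring around the snRNA, with 1 copy of each, yet their mRNA levels per length differed. In WT, Snrpg was highest at 504 ± 104 FPKM and Snrpb lowest at 86.4 ± 28.98 FPKM (mean ± SD, n = 3). Snrpd1 (349 ± 62.4 FPKM), Snrpd3 (324 ± 40.98 FPKM), Snrpe (277 ± 26.7 FPKM), Snrpd2 (260.1 ± 36.4 FPKM) and Snrpf (202 ± 36.8 FPKM) followed Snrpg in that order, and the mean ± SD ranges of neighbours among these 5 overlapped. The counts gave another order: in WT, Snrpg averaged 58.0 ± 12.6 CPM and Snrpb 113 ± 36.9 CPM. Their transcripts are of similar length, 1055 and 1161 bases, so the 2 measures put these genes in opposite order. Short genes such as these have processed copies elsewhere in the genome, and FPKM of short transcripts depends on the fragment length model. Whether either has a part in the disagreement was not tested, and the order is uncertain.

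**Figure D4:**
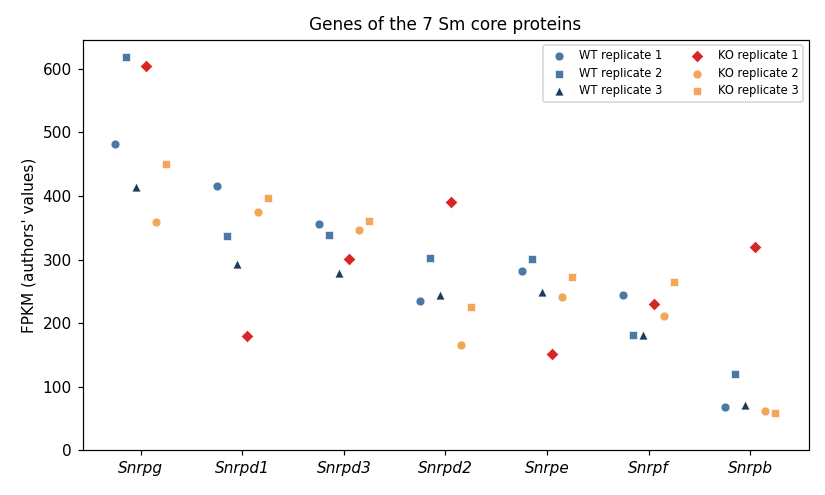
FPKM, as deposited by the authors, of the 7 Sm core genes in each of the 6 libraries, ordered by mean; symbols mark libraries. Snrpb is lowest in every library but KO replicate 1, where it reaches 320 FPKM and Snrpe and Snrpd1 are low.

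Snrpe, one of the ring's smaller members, had the smallest unadjusted p of the Sm genes. It measured 100.4, 106 and 84.6 CPM across WT, against 49.2, 82.1 and 91.5 CPM across KO, with KO replicate 3 inside the WT range, and the log2 fold change was -0.39 (SE 0.27, 95% interval -1.01 to 0.24, adjusted p = 0.753). Snrpb, which encodes the B and B′ proteins and controls its own level through an alternative exon, measured 94.9, 156 and 89.5 CPM across WT, against 361, 82.3 and 80.4 CPM across KO. KO replicate 1 was above every WT library and KO replicates 2 and 3 below every one. The fold change of +0.62 (SE 0.57, 95% interval -0.69 to 1.93, adjusted p = 0.778) turned to -0.48 without KO replicate 1 and to -0.61 without both displaced libraries (unadjusted p = 0.0176, edgeR adjusted p = 0.243). In the GC and length correction it was +0.06. Snrpd2 measured 55.4, 61.1 and 51.1 CPM across WT, against 81.8, 31.5 and 48.9 CPM across KO. Snrpg measured 54.2, 72.1 and 47.8 CPM across WT, against 65.6, 38.5 and 43.01 CPM across KO. For both, KO replicates 2 and 3 lay below every WT library and KO replicate 1 did not. Over all 6 libraries Snrpd2 stood at -0.04 (SE 0.34, 95% interval -0.81 to 0.73, edgeR adjusted p = 0.969). Snrpg stood at -0.24 (SE 0.28, 95% interval -0.89 to 0.41, edgeR adjusted p = 0.818). Without both displaced libraries they stood at -0.52 and -0.61, with edgeR adjusted p of 0.322 and 0.190. For Snrpb, Snrpd2 and Snrpg, the libraries left out were the highest KO and the lowest WT library. Leaving them out therefore lowers the fold change by construction. After the GC and length correction over all 6 libraries Snrpd2 and Snrpg stood at -0.14 and +0.03. Snrpf stood at +0.16 and, after that correction, at +0.58 (edgeR adjusted p = 0.285). Snrpd1 and Snrpd3 stood at -0.16 and +0.01.

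For all 8 genes of U5 and the tri-snRNP the 95% interval lay within 2-fold. It did so for 78.4% of the 51 genes and 41.0% of all genes tested. Such intervals do not show equal levels in the 2 groups. The median log2 fold change of the 8 genes was +0.12, with 7 above 0 and 1 below. Ddx23, the helicase that prepares the tri-snRNP for joining, measured 156, 148 and 139 CPM across WT, against 197, 159.8 and 171 CPM across KO. It was the only one of the 51 genes whose KO libraries all lay to one side of the WT libraries, where 15.7% of all genes tested did so (7.48% with KO higher and 8.18% with KO lower). The difference was small, at +0.25 (SE 0.21, 95% interval -0.22 to 0.73, adjusted p = 0.765). Prpf8, the scaffold of the catalytic centre, measured 1036, 1132 and 907 CPM across WT, against 1182, 1126 and 962 CPM across KO, with a log2 fold change of +0.09 (SE 0.22, 95% interval -0.42 to 0.60, adjusted p = 0.906). Its partners Snrnp200, the helicase that unwinds U4 from U6, and Eftud2, the U5 GTPase, stood at +0.16 and +0.17. Of the U4/U6 proteins, Prpf3 stood at +0.02, Prpf4 at -0.16 and Prpf31 at +0.26, and Prpf6, which bridges the particles, at +0.09.

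In the Prp19 complex, which stabilises the activated spliceosome, Prpf19 encodes the ubiquitin ligase that gives it its name. It measured 143, 185 and 100.5 CPM across WT, against 303, 159.5 and 135 CPM across KO. KO replicate 1 was the highest and the library labelled WT replicate 3 the lowest, and the fold change of +0.48 (SE 0.36, 95% interval -0.35 to 1.30, adjusted p = 0.754) was -0.14 without those libraries. Leaving out the highest KO and the lowest WT library lowers a fold change by construction. Cdc5l, its partner subunit, measured 173, 136 and 124 CPM across WT, against 99.3, 173 and 203 CPM across KO, with KO replicate 1 lowest and KO replicate 3 highest, with a log2 fold change of +0.13 (SE 0.30, 95% interval -0.55 to 0.82, adjusted p = 0.896).

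Without KO replicate 1, the 2 remaining KO libraries lay outside the WT range for 10 of the 51 genes (19.6%), against 29.8% of all genes tested. Ddx23, Hnrnpa1 and Cdc5l were on the higher side, and Hnrnpf, Hnrnpl, Pcbp1, Snrpa, Snrpb, Snrpd2 and Snrpg on the lower. In that edgeR fit 0 of the 51 passed, against 3 of all 11990 genes tested there, and the lowest adjusted p was 0.471. An unadjusted p under 0.05 was found for 1 of the 51 genes (1.96%), Snrpg, against 10.4% of all genes tested. Of the 51 fold changes 14 (27.5%) changed sign, against 31.6% over all genes tested. Apart from Snrpb and Pcbp1, those turning from above to below 0 were Snrpa (+0.23 to -0.19), U2af2 (+0.24 to -0.16) and Snrnp70 (+0.09 to -0.01). Those turning from below to above 0 included Rbm39 (-0.23 to +0.13), Syncrip (-0.19 to +0.20), Snrpd1 (-0.16 to +0.15) and Hnrnpa2b1 (-0.10 to +0.14). The others were U2af1 (+0.15 without that library), Hnrnpu (+0.18), Hnrnpd (+0.07), Hnrnph1 (+0.04) and Sf3a3 (+0.05). With the library labelled WT replicate 3 left out too, 0 passed against 0.693% of all genes, and log2 fold changes ran from -0.61 to +0.30. There 20 of the 51 genes (39.2%) did not overlap between the groups, against 46.3% of all genes tested. Of the 51 genes 16 changed sign (31.4%), against 32.8% of all genes. At an unadjusted p under 0.05 there were 3 of the 51 genes (5.88%), Snrpb, Snrpd2 and Snrpg, below the 14.0% of all genes tested.

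Genes of the same pathway outside the set were taken from lists. Over all genes tested 0.0170% passed in edgeR and 7.51% had an unadjusted p under 0.05. With so few passing in all, 0 passing in a list says little about that list. Of 27 tested further hnRNPs and splicing regulators, 0 passed (0 at an unadjusted p under 0.05), with a median of -0.06. Celf1, a regulator of splicing and decay, averaged 309 ± 21.8 CPM over WT and 247 ± 27.2 CPM over KO (± SD, n = 3 each), with a log2 fold change of -0.32 and an edgeR adjusted p = 0.738, and Pcbp3, a relative of Pcbp1, averaged 4.08 ± 0.417 and 5.83 ± 1.72 CPM. Of 52 further snRNP and spliceosome proteins 0 passed (0 at an unadjusted p under 0.05), with a median of +0.03. Lsm4, of the ring that binds U6, averaged 36.5 ± 2.00 CPM over WT and 71.9 ± 58.1 CPM over KO, a spread in KO larger than the difference, and Lsm5, of the same ring, averaged 60.6 ± 10.6 and 42.3 ± 19.4 CPM. All 9 proteins of the minor spliceosome, which removes the rare U12-type introns, and all 16 proteins of snRNP assembly and import were tested, with 0 passing and 0 at an unadjusted p under 0.05. Their medians were -0.05 and -0.09. Gemin2 of the SMN complex, which loads the Sm ring, averaged 33.7 ± 3.65 CPM over WT and 23.7 ± 6.65 CPM over KO (log2 fold change -0.51, edgeR adjusted p = 0.713).

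The alignment totals deposited by the authors give a coarse summary of spliced reads over all genes. Junctions crossed per 100 uniquely mapped reads were 30.0, 30.4 and 30.1 in WT and 32.5, 28.8 and 29.8 in KO. KO replicate 1 was the highest and KO replicates 2 and 3 the lowest, with a difference of 0.205 between the means (exact two-sided permutation p = 1.0). Unannotated junctions made up 0.923, 0.837 and 0.895% of all junctions in WT and 1.11, 0.899 and 0.970% in KO. The groups overlapped, with an exact two-sided permutation p = 0.2. Junctions with GC/AG ends, a variant that U1 binds less well, were 1.12, 1.09 and 1.24% in WT and 1.03, 1.10 and 1.11% in KO (exact permutation p = 0.3). Those with AT/AC ends, mostly of the minor spliceosome, were 0.0874, 0.0942 and 0.0879% in WT and 0.0991, 0.0918 and 0.0862% in KO (exact permutation p = 0.7). Over these 4 measures the Benjamini-Hochberg adjusted values ran from 0.6 to 1.0, and 3 against 3 libraries allow no p below 0.1. Such totals pool all genes and cannot show a change in single exons.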

How the data were processed

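The series' design text describes stranded mRNA libraries, read from one end over 75 bases and run through VIPER. The aligner was STAR 2.4.2a, according to file headers, and mm9 the build, according to the submitters' processing notes. The authors deposited whole-number counts for 24982 symbols, FPKM for 24917 symbols, and alignment totals. With counting program, annotation and strandedness not given in the sources used here, reads of genes that overlap, antisense ones included, may be mixed. Dates stand in place of symbols in 26 entries (0.271% of counts), which stayed in the library sizes. One label field names effector CD4 T cells; titles and sorting protocol name nTreg cells and were followed.

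The test on these counts was run in R 4.3.3 with edgeR 4.0.16 (TMM scaling, filterByExpr with minimum count 10, quasi-likelihood F test, Benjamini-Hochberg adjustment over all 11772 genes, threshold 0.05). Standard errors were derived from the F statistic. On simulated counts for 11655 genes, 95.2% of the 95% intervals held the true value and 3 false calls were made. Each gene was simulated on its own, without a displacement shared by the genes of a library. The simulation therefore cannot show how the intervals hold with a library such as KO replicate 1. Intervals cover the spread of 3 libraries each. Replicate pairs differed beyond sampling noise (chi-square per degree of freedom 17.4 to 176). The value was 176 and 172 for KO replicate 1 with KO replicates 2 and 3, and 47.8 to 96.4 within WT. It was lowest, at 17.4, between KO replicates 2 and 3, the smallest libraries. Transcript GC content and length came from GENCODE M21 for 99.2% of tested genes, 1 transcript per gene (APPRIS principal, then longest coding part). No coordinate of the files' build was used.

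Alternatives were DESeq2 1.42.0, limma 3.58.1 (voom, and log2 FPKM with a pseudocount of 1 or 0.1), other scalings and filters, a replicate block, leaving out libraries, and, chosen after seeing the data, a lowess correction for GC content and length (span 0.3). The members and lists were chosen with earlier results of these data known. By rule, full values are given for members past the threshold, those with the smallest p in each role, those without overlap between groups, and those at the ends of the FPKM range. Hnrnpa1, Hnrnpa2b1, Hnrnpl, Pcbp1, Pcbp2, Rbm39, Snrpd2, Prpf8 and Cdc5l were added after their values were seen, as were the libraries' displacements.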

Additional observations from a re-analysis of the deposited data

How the results depend on the processing

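In all 20 alternatives, 0 of the 51 genes passed an adjusted p of 0.05, and 0 to 3 had an unadjusted p under 0.05. The medians over hnRNPs and over spliceosome proteins moved by less than the spread between libraries (SD 0.33 and 0.15 on the log2 scale) under each alternative. Of 1020 single fold changes recomputed, 31 moved by more than their replicate SD, 2 of them without KO replicate 1, 9 with 2 against 2 libraries (also lacking the library labelled WT replicate 3) and the others under the GC and length corrections. The count of genes called over the whole table was less stable. It was 2 in edgeR, 6 with no filter, 122 in DESeq2, 1 in limma voom, 0 by limma on log2(FPKM + 1) (1040 at an unadjusted p under 0.05) and 0 on log2(FPKM + 0.1) (1033). With 1 library left out it ran from 0 to 3 (509 to 1272 at an unadjusted p under 0.05), the 3 being without KO replicate 1, and with 2 against 2 libraries it was 80. The GC and length correction gave 17. With the replicate number as a block the count was 1, and with the replicate block and the GC and length correction 115. Deviations of same-numbered libraries from their group means correlated at r = -0.32, 0.15 and 0.14. For libraries of different number r ran from -0.34 to 0.29. With 3 libraries per group these r cannot show whether same-numbered samples were paired. The block ended no call among the 51 genes, since there was none. The causes were not tested. The 51 genes had at least 352 counts each in every library, and the 3 libraries per group limit the precision.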
